A study of Mus musculus with 2 samples.

Results

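The 35 genes described here are the interferon-stimulated genes Isg15, Ifit1, Ifit2, Ifit3, Ifitm1, Ifitm2, Ifitm3, Ifitm6, Oas1a, Oas1g, Oas2, Oas3, Oasl1, Oasl2, Rsad2, Mx1, Mx2, Stat2, Usp18, Bst2, Rtp4, Xaf1, Zbp1, Ifih1, Ddx58, Dhx58, Ifi27, Ifi35, Ifi44, Eif2ak2, Parp9, Parp14 and Trim25, together with Ifnar1 and Ifnar2, which encode the receptor for type I interferon. They were taken by symbol from a fixed list, and all 35 had a row among the 43346 mouse gene IDs of the deposited tables. In the GENCODE M21 annotation 34 of them are protein-coding, out of 21461 nuclear protein-coding genes with a row. The remaining member, Mx2, is annotated as a polymorphic pseudogene, a gene that is intact in some strains and disrupted in others. Total RNA depleted of ribosomal RNA was sequenced from cells labelled megakaryocyte, taken from male C57BL/6J mice of 5 to 6 weeks, using 100 ng of RNA per library. The title of the isolation protocol names bone marrow as the source, and how the cells were selected is not stated in the text used here. The 2 libraries are biological replicates 1 and 2 of a single group and carry the same donor identifier, so the spread between them may be partly technical. No treatment, mutation or second group was given, and no response to interferon could be measured. Size selection was stated as 221 to 1000 nucleotides for library 1 and 200 to 1000 nucleotides for library 2.

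Type I interferon is a secreted signal of viral infection. It binds a receptor made of an IFNAR1 and an IFNAR2 chain, which activates the kinases JAK1 and TYK2. These phosphorylate STAT2, which acts with IRF9 at the interferon-stimulated response element (ISRE) in the promoters of interferon-stimulated genes. The gamma-activated site (GAS) is a further element through which interferons act. The products detect foreign RNA, degrade or trap viral components, and limit further signalling, and many of them are also made at low levels in blood cells without infection.

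The sequences that the pathway reads are the ISREs before these genes. The stretches below are RefSeq promoter sequence (build GRCm38.p6) of 100 bases, on the strand of the gene and 5′ to 3′, with the ISRE core in capitals. The core is GAAA, any 2 bases, GAAA, on either strand, and neighbouring cores can overlap. Ifitm2 and Bst2 are shown as members at a mean of 10 TPM or more with a core before the start, and Isg15 as a low member with 3 overlapping cores. TPM is a transcript level corrected for length and scaled to the same total in each library. Ifit1, Ifit3, Oas1a and Oas1g were added after their values were seen, to compare neighbouring genes of a family.
Ifitm2 (chr7:140955962-140956061, minus strand): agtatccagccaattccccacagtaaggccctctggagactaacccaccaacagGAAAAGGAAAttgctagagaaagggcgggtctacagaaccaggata
Bst2 (chr8:71537542-71537641, minus strand): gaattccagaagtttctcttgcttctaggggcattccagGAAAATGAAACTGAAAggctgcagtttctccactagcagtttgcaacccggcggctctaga
Isg15 (chr4:156200830-156200929, minus strand): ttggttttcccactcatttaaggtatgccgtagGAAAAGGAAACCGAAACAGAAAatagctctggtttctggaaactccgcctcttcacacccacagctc
Ifit1 (chr19:34640759-34640858, plus strand): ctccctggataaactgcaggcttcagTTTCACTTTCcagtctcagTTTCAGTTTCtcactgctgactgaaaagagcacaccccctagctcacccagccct
Ifit3 (chr19:34583362-34583461, plus strand): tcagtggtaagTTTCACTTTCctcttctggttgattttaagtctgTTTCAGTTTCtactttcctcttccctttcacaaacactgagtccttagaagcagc
Oas1a (chr5:120907526-120907625, minus strand): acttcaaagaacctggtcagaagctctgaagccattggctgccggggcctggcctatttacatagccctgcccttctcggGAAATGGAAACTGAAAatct
Oas1g (chr5:120887614-120887713, minus strand): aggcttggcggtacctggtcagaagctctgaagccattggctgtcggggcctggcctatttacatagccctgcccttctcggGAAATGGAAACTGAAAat
In Ifit1 and Ifit3 the core reads on the opposite strand, as TTTC, 2 bases, TTTC.

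Library 1 held 42703213 expected counts in all and library 2 held 50532821, so that 1 TPM at an effective length of 1000 bases was worth 100.2 and 114 counts. The markers of the labelled cell type were nearly absent. Of 12 megakaryocyte and platelet genes, Itga2b alone reached 1 TPM in both libraries, Gp5 and Gp6 were among those with 0 counts in both, and the list summed to 3.52 and 5.53 TPM. All 12 neutrophil and all 10 monocyte and macrophage genes were at 10 TPM or more in both, with sums of 14616.62 and 13888.9 TPM for neutrophil genes and of 8218.46 and 10582.0 TPM for monocyte genes. The levels below are therefore those of the libraries labelled megakaryocyte, not of megakaryocytes. In RNA from a cell mixture, fewer cells of a type and less RNA per cell cannot be told apart.

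Nearly all members were expressed. At 1 TPM or more in both libraries stood 32 of 35 members (91.4%), against 42.4% of nuclear protein-coding genes, and 13 of 35 (37.1%) reached 10 TPM in both, against 16.9%. No member had 0 counts, and the lowest count was 47, of Ifi44 in library 1. The median member had 7.6 TPM in library 1, 8.46 TPM in library 2 and 8.03 by mean TPM. The median over all nuclear protein-coding genes was 0.28 TPM, but it was 8.035 TPM over those at 1 TPM or more in both libraries. The second value is close to that of the members, but the member median was taken over all 35, including those below that level. Together the members made up 1073.2 and 1107.9 TPM, which is 0.447% and 0.413% of the TPM of nuclear protein-coding genes. The 4 IFITM genes held 71.6% and 70.8% of that sum. A level alone does not show that interferon was acting, and activity of the pathway was not measured.

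**Figure D1:**
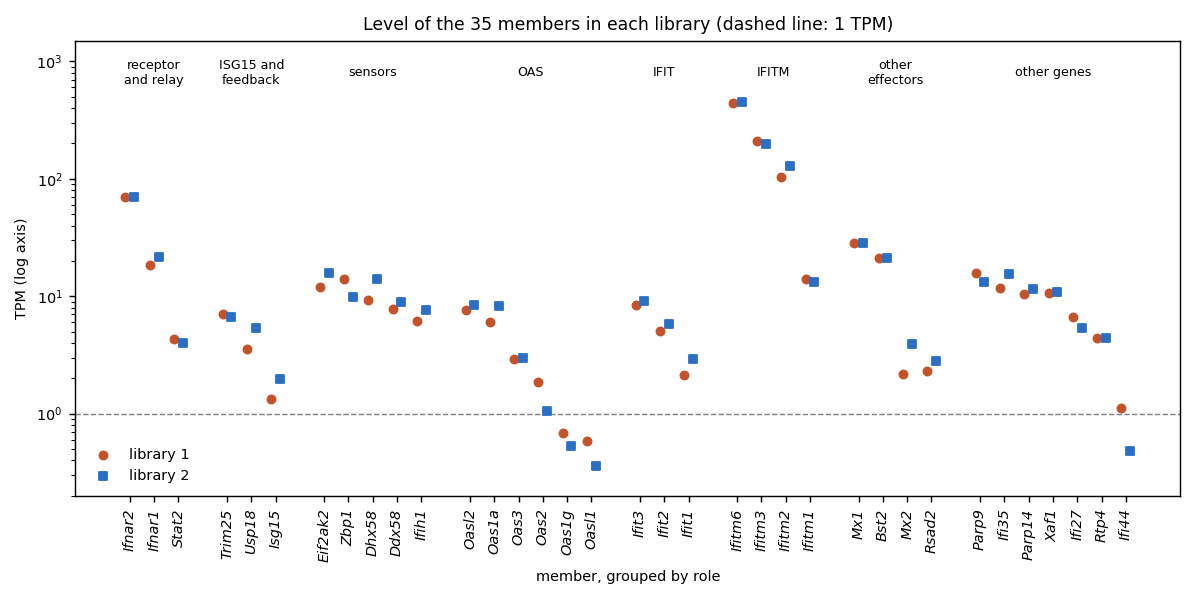
TPM of each member (log axis) in library 1 (circles, left) and library 2 (squares, right), grouped by role, with 1 TPM as a dashed line. Levels run from about 0.475 TPM for Oasl1 to 445.3 TPM for Ifitm6 by mean, and Oas1g and Oasl1 lie under the line in both libraries.

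The receptor genes were among the better expressed members. Ifnar2 (chromosome 16, 91372783 to 91405589), which encodes the chain that binds interferon most tightly, stood at 70.63 TPM in library 1 and 70.47 TPM in library 2. Ifnar1 (chromosome 16, 91485238 to 91507441), the second chain, stood at 18.46 and 21.52 TPM. The TPM of Ifnar2 was thus 3.83 and 3.27 times that of Ifnar1. Stat2, the transcription factor particular to type I and type III signalling, was lower at 4.32 and 4.0 TPM.

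The Ifnar2 level came mostly from a short transcript. Mouse Ifnar2 is known to be spliced into a receptor that spans the membrane and a soluble form without the inner part. Ifnar2-203 is 1099 bases long with 248 codons, and took 73.96% and 70.11% of the Ifnar2 TPM. Ifnar2-201, of 3047 bases with 513 codons, took 21.59% and 23.63%. The deposited intervals for TPM, whose level is not given, ran from 49.9 to 53.4 in library 1 and from 47.3 to 50.7 in library 2 for Ifnar2-203, and from 14.5 to 15.6 and from 15.9 to 17.1 for Ifnar2-201. By expected counts, which are not corrected for length, the shares of Ifnar2-203 were 50.7% and 45.9% and those of Ifnar2-201 were 47.8% and 50.4%. Longer transcripts give more reads per molecule, so the 2 forms drew similar numbers of reads at unequal TPM. Which protein Ifnar2-203 gives was not tested.

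The 3 members grouped under ISG15 conjugation and feedback were below the median member. Isg15 (chromosome 4), a ubiquitin-like protein that is attached to other proteins and is usually among the most strongly induced interferon targets, had 71 and 118 counts, or 1.33 and 1.99 TPM. Usp18, which removes ISG15 and also blocks signalling at the receptor, stood at 3.53 and 5.33 TPM. Trim25, a ubiquitin ligase that acts with the RNA sensor RIG-I, was the highest of the 3 at 7.01 and 6.61 TPM. Uba7 and Ube2l6, conjugation genes that are not members, stood at 10.69 and 9.77 TPM and at 7.82 and 6.92 TPM.

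The nucleic acid sensors lay close together, between mean levels of 6.88 and 13.97 TPM. Eif2ak2 (chromosome 17) encodes PKR, a kinase that stops translation when it binds double-stranded RNA, and stood at 12.02 and 15.93 TPM. Zbp1 (chromosome 2), a sensor of left-handed nucleic acid that starts inflammatory cell death, stood at 14.06 and 9.77 TPM. Dhx58, which encodes the regulator LGP2, stood at 9.22 and 14.04 TPM. The order of these 3 genes changed between the libraries. Ddx58 (RIG-I) and Ifih1 (MDA5), which detect viral RNA and signal through MAVS, stood at 7.73 and 8.92 TPM and at 6.16 and 7.6 TPM.

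Within the OAS family, named for enzymes that make oligoadenylates that activate RNase L, neighbouring genes differed widely in level. Oasl2 stood at 7.6 and 8.46 TPM and Oas1a at 6.03 and 8.2 TPM. Oas3 followed at 2.9 and 2.99 TPM and Oas2 at 1.87 and 1.05 TPM. Oas1g, beside Oas1a on chromosome 5, was at 0.68 and 0.53 TPM, and Oasl1, beside Oasl2, was at 0.59 and 0.36 TPM. Oas1a stood 8.87 and 15.5 times above Oas1g. The promoters of Oas1a and Oas1g printed above were lined up, without gaps, from 100 bases before the first core to the end of the last. They have 106 of 116 bases in common, and the cores are the same in both. The compared stretch of Oas1a also holds a GAS that begins at -98, while the promoter of Oas1g holds none. Expected counts of Oas1a and Oas1g were not whole numbers, which shows reads shared with other genes, so their ratio is uncertain. Oasl2 and Oasl1 had whole counts, and stood 12.9 and 23.5 times apart.

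All 3 IFIT genes, whose products bind foreign RNA ends and block its translation, were expressed. Ifit3 stood at 8.44 and 9.07 TPM, Ifit2 at 5.02 and 5.83 TPM and Ifit1 at 2.15 and 2.9 TPM, in the same order in both libraries, and by mean TPM Ifit3 lay above the median member and the others below it. Counts of Ifit1 and Ifit3 were fractional.

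The IFITM genes encode small membrane proteins that hinder the fusion of enveloped viruses with the cell. Ifitm6, Ifitm3 and Ifitm2 were the 3 highest members, and the order of the 4 IFITM genes was the same in both libraries. Ifitm6 (chromosome 7, 141015699 to 141017924) stood at 443.28 and 447.26 TPM and ranked 73rd by mean TPM among nuclear protein-coding genes. Ifitm3 (chromosome 7, 141009586 to 141010770), the best studied antiviral member, stood at 208.31 and 196.24 TPM, and Ifitm2 at 102.69 and 127.99 TPM. Ifitm1 was far lower at 13.96 and 13.28 TPM. Each step down this order was larger than the gap between the libraries, with Ifitm6 2.13 and 2.28 times above Ifitm3, Ifitm3 2.03 and 1.53 times above Ifitm2, and Ifitm2 7.36 and 9.64 times above Ifitm1. All 4 had whole counts in both libraries.

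Of the other effectors, Mx1 (chromosome 16), a GTPase against influenza virus that carries a disabling deletion in many laboratory strains, stood at 28.57 and 28.2 TPM. Bst2 (chromosome 8) encodes tetherin, which holds budding virus at the cell surface, and stood at 21.25 and 21.21 TPM. Mx2 was at 2.17 and 3.93 TPM, and its counts, like those of Mx1, were fractional. Rsad2 encodes viperin, a radical SAM enzyme that makes a chain-terminating nucleotide, and was at 2.31 and 2.81 TPM.

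Of the remaining 7 genes, 4 had a mean of 10 TPM or more. Parp9, a partner of the ubiquitin ligase DTX3L, stood at 15.67 and 13.23 TPM and Parp14, an ADP-ribosyltransferase, at 10.53 and 11.5 TPM. Ifi35 stood at 11.76 and 15.55 TPM and Xaf1, which binds the inhibitor of apoptosis XIAP in human cells, at 10.72 and 10.97 TPM. Parp9 shares bases with Dtx3l on the opposite strand, itself at 12.43 and 14.08 TPM, and without stated strand handling reads in the shared part cannot be told apart. In all, 11 members overlap another annotated gene, 8 of them on the opposite strand, and of the overlapping genes with a row Dtx3l alone was above 1 TPM. Ifi27, of a family of small hydrophobic proteins, stood at 6.65 and 5.32 TPM, and Rtp4, a chaperone of membrane receptors, at 4.45 and 4.4 TPM.

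The 2 libraries gave similar values for most members. Ratios of library 1 over library 2 were taken from expected counts scaled by TMM, with an exact 95% interval that covers counting error only, and 1.5-fold (0.585 on the log2 scale) was used as the limit. There is no residual degree of freedom between single libraries, so no test was made. Of 35 members, 31 lay within 1.5-fold. The median log2 ratio was -0.019 for the members and -0.001 for all 14280 genes that averaged at least 10 counts. The median absolute log2 ratio was 0.203 for the members, 0.239 for all these genes and 0.179 for those that averaged at least 100 counts. The counting interval excluded 0 for 27 members (77.1%), against 67.4% of all genes tested. Counting error is thus smaller than many of the differences between these libraries. The interval narrows as counts rise, and 31 of 35 members averaged at least 100 counts, against 10952 of the 14280 genes. The 77.1% and 67.4% are therefore not matched for depth.

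**Figure D2:**
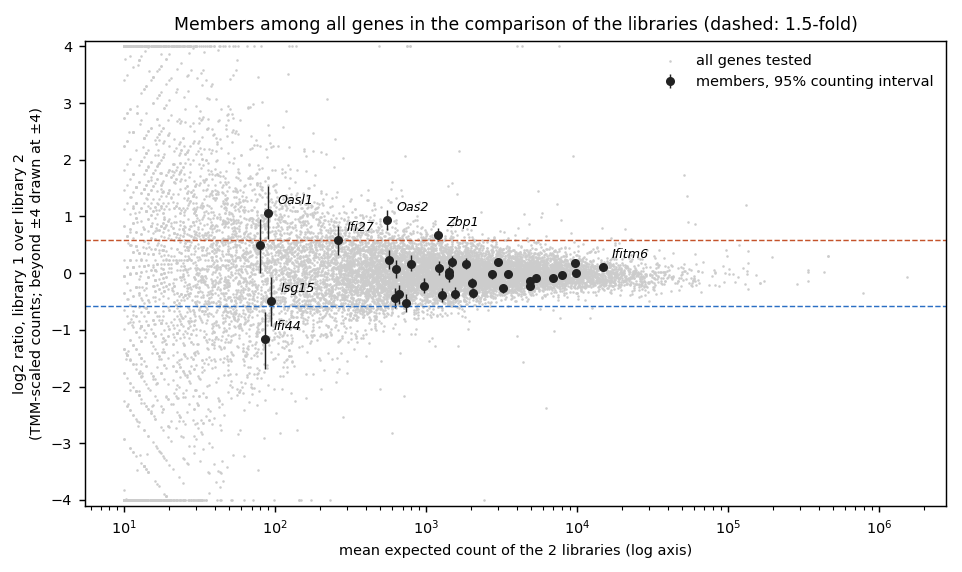
Log2 ratio of library 1 over library 2 against mean expected count (log axis) for all genes tested (grey) and the 35 members (black, with 95% counting intervals), with 1.5-fold as dashed lines. Oasl1, Oas2 and Zbp1 lie above the upper line and Ifi44 below the lower one, and Ifi27 at 0.58 lies just inside.

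Past 1.5-fold and higher in library 1 were 3 members (8.57%), against 13% of all genes tested and 5.78% of those that averaged at least 100 counts. These were Oasl1 with 115 and 65 counts (log2 1.06, interval 0.61 to 1.53), Oas2 with 685 and 423 counts (0.94, 0.76 to 1.11) and Zbp1 with 1373 and 1016 counts (0.68, 0.56 to 0.79). Past 1.5-fold and higher in library 2 was 1 member (2.86%), against 10.8% of all genes tested and 4.22% of those that averaged at least 100 counts. This was Ifi44, with 47 and 125 counts (-1.17, -1.69 to -0.68). At that count, Oas2 and Zbp1 were the calls that remained, 2 of 31 members. These shares are near or below the background. Ifi27, at 0.58 (0.32 to 0.83) with 292 and 231 counts, was just inside the limit, and Usp18 was the nearest on the other side at -0.53.

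Markers of some other cell types differed between the libraries too. For comparison, 13% of all genes tested were past 1.5-fold and higher in library 1, and 10.8% were past it and higher in library 2. Erythroid genes summed to 113.0 TPM in library 1 against 54.07 TPM in library 2, with 6 of 8 past 1.5-fold and higher in library 1 and 1 of 8, Epor, past it and higher in library 2. T and NK cell genes summed to 32.5 and 19.16 TPM, with 4 of 8 past the limit and higher in library 1 and 2 of 8 higher in library 2, and none was at 0 in either. The plasmacytoid dendritic cell list summed to 15.04 and 13.86 TPM, with 2 of 7 genes higher in library 1, 1 higher in library 2, and Klk1 at 0 in both. B cell genes summed to 3.34 and 4.33 TPM, with 1 of 6 past the limit in each direction and 1 at 0 in both. The part of these cells in the ratios of Oasl1, Oas2, Zbp1 and Ifi44 was not tested.

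The sign of a difference depended for some members on the unit. The TPM ratio and the count ratio had opposite signs for 7 members, and 6 of these, namely Oas3, Oasl2, Ifitm6, Mx1, Xaf1 and Parp9, were within 1.5-fold by either. The exception was Ifi44, at 1.12 TPM in library 1 and 0.48 TPM in library 2, although library 2 held more of its reads. In library 1, 96.15% of its TPM was placed on Ifi44-204, a processed transcript of 531 bases, which had 0 in library 2. The coding transcript Ifi44-201, of 2860 bases, held 1.99% and 51.04%. The effective length of the gene was therefore 419.97 bases in library 1 and 2304.13 in library 2.

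Most members were read mainly from coding transcripts. The coding share is the part of the TPM of a gene on transcripts annotated as protein-coding. Among the 32 members at a mean of 1 TPM or more, 16 had 100% in both libraries, and 20 had 90% or more. The median was 100% in both, against 99.06% and 98.69% for all nuclear protein-coding genes at that level. Under 50% in either library were 3 members, of which 2 are protein-coding (6.45% of 31), against 13.1% of 9422 such genes.

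**Figure D3:**
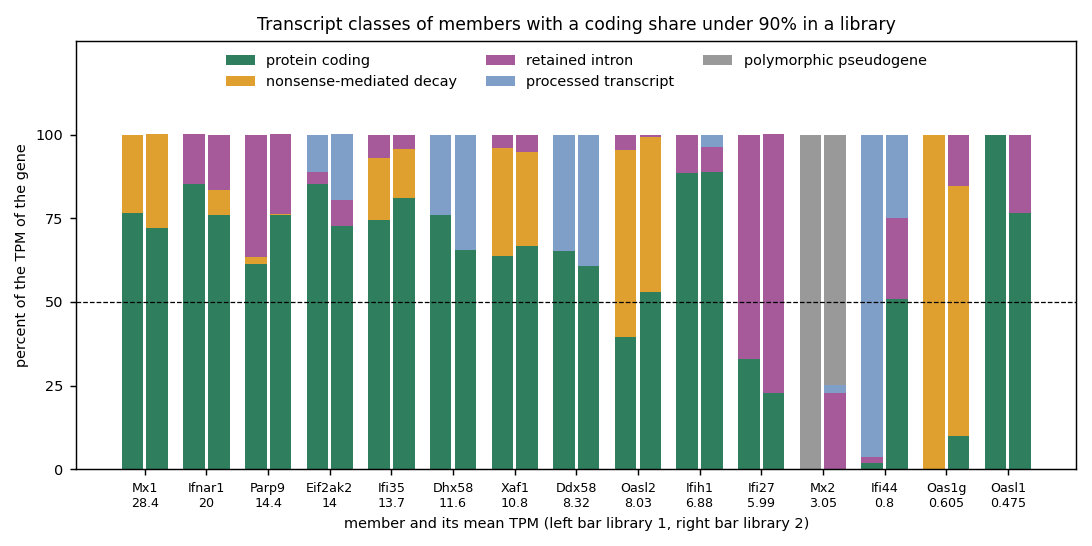
Percent of the TPM of a gene on each class of transcript, for the 15 members with a coding share under 90% in at least 1 library (left bar library 1, right bar library 2), ordered by mean TPM. The dashed line is 50%, and at a mean of 1 TPM or more Oasl2, Ifi27 and Mx2 fall under it in at least 1 library.

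In Oasl2 the transcript Oasl2-205, annotated for nonsense-mediated decay, the pathway that removes messages with an early stop codon, held 55.79% and 46.24% of TPM, and the coding share was 39.66% and 53.0%. In Ifi27 the coding share was 32.84% and 22.93%, and Ifi27-209, a retained intron transcript of 527 bases, held 57.88% and 65.77%. By expected counts the coding share of Ifi27 was 51.24% and 38.0%, above 50% in library 1, and that of Oasl2 was 47.18% and 47.29%. Mx2 has no transcript annotated as protein-coding, and Mx2-202, a polymorphic pseudogene transcript, held 95.72% and 72.62%. These placements agreed in direction between the libraries, except that Oasl2 lay on either side of 50%. Short non-coding transcripts weigh more in TPM than in reads. For Dhx58 the coding share was 75.87% and 65.43% of TPM but 93.89% and 92.49% of expected counts, and for Eif2ak2 it was 85.25% and 72.72% of TPM but 98.48% and 96.84% of counts.

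Mx1 was split among several transcripts. The longest coding transcript, Mx1-201 with 627 codons, held 2.01% and 0%. Mx1-202, with 397 codons, held 35.74% and 43.2%, and Mx1-205, annotated for nonsense-mediated decay, held 21.16% and 26.82%. The 481-base Mx1-204 held 38.7% and 28.82% of TPM on 286.25 and 228.2 counts. Most of the 28.57 and 28.2 TPM of Mx1 thus lay outside the form with 627 codons. By TPM the sensor gene Zbp1 was led by a short form as well, Zbp1-202 with 187 codons, at 73.28% and 76.04%. Zbp1-201, with 411 codons, held 19.02% and 17.49%. Expected counts were closer, with 564.09 and 452.25 for Zbp1-202 and 472.95 and 341.33 for Zbp1-201. The retained intron transcript Zbp1-203 had 335.96 and 222.42. Below 1 TPM, Oas1g had 100% and 74.72% of its TPM on Oas1g-203, a transcript annotated for nonsense-mediated decay, and no TPM on coding Oas1g-201 in library 1.

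ISREs were common in the member promoters. Promoters of 300 bases, from 250 before to 50 after the RefSeq start, were found by symbol for 25 of the 35 members and for 27025 genes in all. The ISRE core was in 14 of 25 member promoters (56.0%), against 3.99% of all promoters. The longer ISRE, a core followed by CT, which is by construction always also a core, was in 7 of 25 (28.0%), against 0.303%. The GAS, read as TTC, any 3 bases, GAA on either strand, was in 9 of 25 (36.0%), against 9.55%. In the 250 bases before the start alone, the core was in 10 of 25 (40.0%), against 3.46%. The members are genes known for their interferon response, so this share describes the list, and a match is not a bound site.

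**Figure D4:**
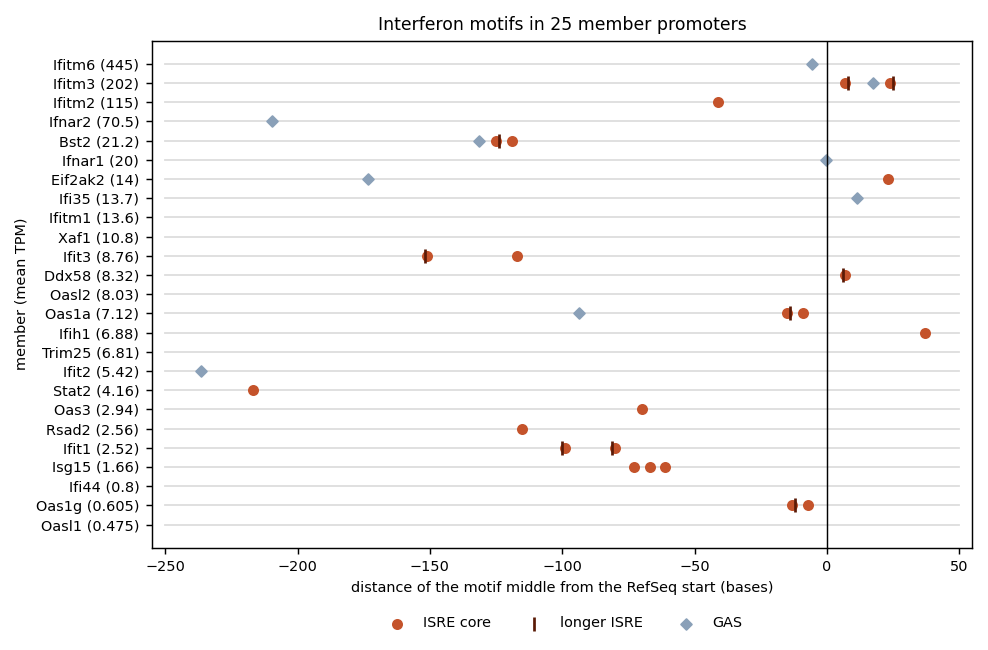
Position of each ISRE core (circles), longer ISRE (bars) and GAS (diamonds) in bases from the RefSeq start, for 25 members ordered by mean TPM from the top. Cores fall from about -217 in Stat2 to 37 in Ifih1, and members with and without a core are spread over the whole range of levels.

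Members with and without a core overlapped in level. The 14 members with a core had a median of 6.998 TPM (range 0.605 to 202.3) and the 11 without had a median of 10.85 TPM (range 0.475 to 445.3). Ifitm6, the highest member, had no core in the window. That window of 300 bases has its low end at 141016843 on chromosome 7. It does not reach the GENCODE start of Ifitm6 at 141017924, and sequence before that start was not searched. Isg15, with 3 overlapping cores ending 57 bases before the start, was at 1.33 and 1.99 TPM. Ifit1 has 2 separate longer ISREs and was at 2.15 and 2.9 TPM. In Ifitm3, Eif2ak2, Ddx58 and Ifih1 the cores begin after the RefSeq start, at positions 3 and 20, 19, 3 and 33. The start used by RefSeq for Ifitm2 lies 26 bases downstream of the GENCODE start, and its core at -46 precedes both.

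Many members lie side by side. With a largest gap of 200000 bases between neighbours, 22 members fell into 10 clusters with each other or with the related genes listed for this purpose, and chromosome 16 held 7 members. On chromosome 16, from 91372783 to 91565623, lie Ifnar2, the interleukin-10 receptor gene Il10rb, Ifnar1 and Ifngr2, and all 4 were expressed, Il10rb at 15.72 and 17.75 TPM and Ifngr2 at 13.43 and 15.43 TPM. Parp14, Dtx3l and Parp9, from 35832874 to 35972605 on the same chromosome, lay within a narrow range of mean TPM, from 11.02 to 14.45. Other clusters were uneven. In the OAS cluster of 10 genes on chromosome 5, Oas1d, Oas1e, Oas1f and Oas1h had 0 counts in both libraries, and Oas1b, which is disrupted in many laboratory strains, was at 0.69 and 0.65 TPM. In the IFITM cluster on chromosome 7, from 140948958 to 141017924, Ifitm5, known from bone-forming cells, had 0 and 4 counts beside Ifitm6 and Ifitm3. On chromosome 12, Ifi27l2a stood at 90.55 and 141.39 TPM beside Ifi27 at 6.65 and 5.32 TPM, while Ifi27l2b had 0 counts.

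The type I interferon genes themselves were not detected at this depth. All 17 type I interferon ligand genes had 0 counts in both libraries. A count of 0 allows up to 3 counts, which for these genes is 0.0359 to 0.0886 TPM in library 1 and 0.032 to 0.0808 TPM in library 2. Ifnl2 and Ifnl3 also had 0 counts. Ifng, the type II interferon made by T and NK cells, had 64 and 22 counts, at 0.65 and 0.2 TPM, and its ratio was past 1.5-fold (log2 1.78, interval 1.06 to 2.55). It was higher in library 1, as was the sum of the T and NK cell genes. On that list 4 of 8 genes were past the limit and higher in library 1. Cd4 (log2 -2.57) and Cd8a (-1.42) were higher in library 2. The part of these cells in the Ifng ratio was not tested.

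**Figure D5:**
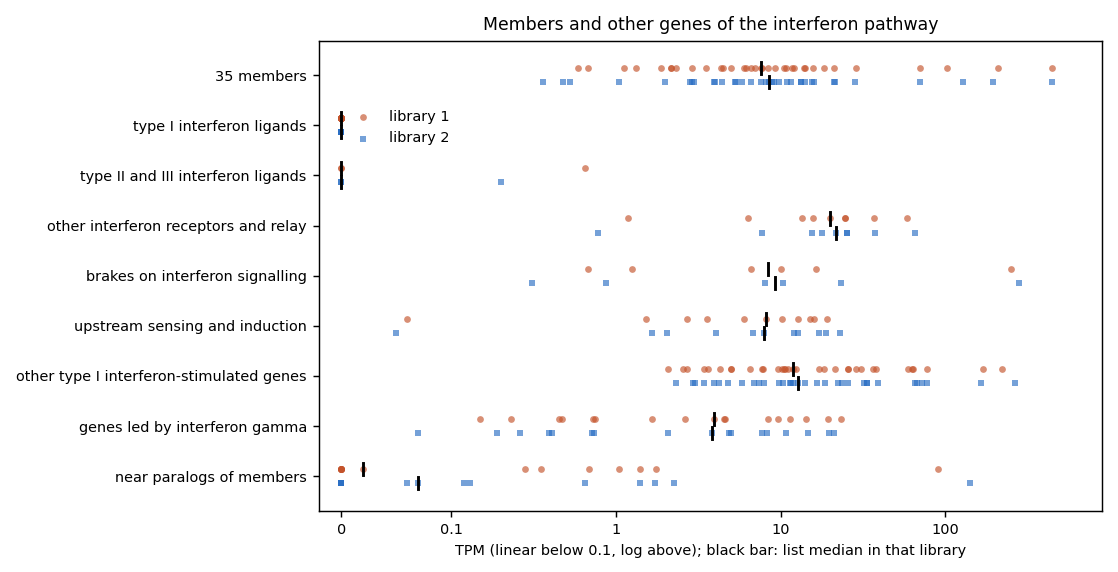
TPM of the 35 members and of each other list of interferon pathway genes in library 1 (circles, upper row) and library 2 (squares, lower row), on an axis that is linear below 0.1 and logarithmic above. Black bars are list medians, and all 17 type I ligand genes lie at 0 while the receptors and relay genes lie mostly above 10 TPM.

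Genes of the receiving side of the pathway were expressed. Of 9 further receptor and relay genes, 8 reached 1 TPM and 7 reached 10 TPM in both libraries. Ifngr1, the main chain of the interferon gamma receptor, stood at 58.81 and 65.96 TPM, and Jak1 at 24.47 and 25.46 TPM. Irf9, the DNA-binding partner of STAT2, stood at 24.55 and 25.29 TPM, well above Stat2. The exception was Ifnlr1, the type III receptor chain, at 1.19 and 0.78 TPM. Ifnlr1 was also the only 1 of the 9 past 1.5-fold between the libraries, higher in library 1 (log2 0.67, interval 0.46 to 0.87). In that direction 13% of all genes tested were past it. Of 6 brakes on signalling 4 were at 1 TPM or more in both, led by the phosphatase gene Ptpn6 at 250.57 and 280.12 TPM, while Socs1 had 68 and 35 counts and Socs3 295 and 230. Socs1 (log2 1.2) and Socs3 (0.6) were both past 1.5-fold and higher in library 1. None of the 6 was past it and higher in library 2. The shares over all genes tested were 13% and 10.8%, and 5.78% and 4.22% among those that averaged at least 100 counts.

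Of 11 genes with a row that act in nucleic acid sensing and interferon induction, 10 reached 1 TPM in both libraries, with Irf3 at 19.08 and 23.1 TPM and Irf7 at 16.0 and 18.95 TPM. The exception was Tlr3 at 0.06 and 0.05 TPM. All 33 genes of a list of other type I interferon-stimulated genes were at 1 TPM or more in both, 20 of them at 10 TPM or more, and none was past 1.5-fold between the libraries, against 5.78% and 4.22% in the 2 directions among all genes that averaged at least 100 counts, as each of the 33 did. They were led by Slfn2, a regulator of leukocyte quiescence, at 221.1 and 265.75 TPM, and Samhd1, which degrades nucleotides needed by viruses, at 168.54 and 165.27 TPM. Of 17 genes with a row that are led by interferon gamma, 10 were at 1 TPM or more in both, with Irf1 at 23.14 and 21.08 TPM and Irgm1 at 19.3 and 19.62 TPM. Of these 17 genes, 3 were past 1.5-fold and higher in library 1, and 1 was past it and higher in library 2. The shares over all genes tested were 13% and 10.8%, and 5.78% and 4.22% among those that averaged at least 100 counts. The 3 were Gbp8 (log2 1.67, with 51 and 19 counts), Tgtp1 (1.18) and Iigp1 (0.95, with 132 and 81 counts). The gene higher in library 2 was Tgtp2 (-0.72), although by TPM it was higher in library 1, at 9.71 and 8.22 TPM. The chemokine genes Cxcl9 and Cxcl10, both on this list, were at 0.15 and 0.19 TPM and at 1.65 and 2.08 TPM.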

How the data were processed

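The authors deposited a gene table and a transcript table for each library. A deposited text file gives mm10 as the genome and GENCODE M4 as the annotation. The aligner and quantifier are not given in the sources used here, although RSEM uses the same column names. Expected counts in the deposited tables are estimates of reads, without normalization. The deposited TPM and FPKM values are corrected for length, and the authors also deposited a posterior mean TPM, an interval for TPM, an effective length and the percent of the TPM of a gene on each transcript.

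GENCODE M21 gave symbols, types and coordinates by gene ID without version (42462 of 43346 mouse IDs matched). All ratio and log2 values were computed here and none was deposited. For scaling, expected counts were rounded to integers and passed to edgeR 4.0.16 (TMM) in R 4.3.3, with DESeq2 1.42.0 size factors as an alternative. Clopper-Pearson 95% intervals (scipy 1.17.1) and the limit of 3 counts for a count of 0 cover counting error only. Genes that averaged at least 10 counts entered the ratios. Other steps used Python 3.11.15, pandas 2.3.3, numpy 2.4.6 and matplotlib 3.10.9. Scripts were tested on simulated data. Counts within 0.005 of a whole number were called whole.

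The members, the pathway and marker lists and the rules were chosen with earlier results of these data known. All members were reported by role, in full for those at a mean of 10 TPM or more, past 1.5-fold or with a coding share under 50%, and of each pathway list up to 4 genes of highest mean TPM. Genes named beyond this were chosen after their values were seen. Of the listed genes, 3 lacked a row and were not used here. Some genes of the lists are not reported here by name and remain in the counts.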

Additional observations from a re-analysis of the deposited data

How the results depend on the processing

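The median level of the members was 8.03 by TPM, 18.46 by FPKM and 31.61 by TPM rescaled over nuclear protein-coding genes, and 7.6 to 8.46 with either library left out. Members at 1 TPM or more numbered 32, and 32 to 33 with either library left out. Members past 1.5-fold between the libraries numbered 4, and 2 either with a limit of 2-fold or with a mean count of 100 or more. Higher in library 1 were 3, or 1 with 2-fold, namely Oasl1. Higher in library 2 was 1, Ifi44, or 0 with a mean count of 100 or more and 3 by the TPM ratio, which adds Usp18, Dhx58 and Mx2 and turns Ifi44 round from -1.17 to 1.22, since the effective length of Ifi44 differed between the libraries. By the TPM ratio Zbp1, at 0.53, was no longer past the limit. Members under a coding share of 50% numbered 3, and 2 to 3 with either library left out. The other alternatives moved no count by over 1.5 times. A ratio needs both libraries, so it has no value with either left out. No paired analysis was possible because there is a single group.

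Depth limits genes near 0 most. Isg15, Oas1g, Oasl1 and Ifi44 rest on 47 to 125 counts in each library. Levels of Oas1a, Oas1g, Ifit1, Ifit3, Mx1 and Mx2 depend on how shared reads were divided.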

Other observations

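By expected counts the near-identical interferon gamma targets Tgtp1 and Tgtp2, immunity-related GTPase genes on chromosome 11, moved in opposite directions between the libraries. By TPM both were higher in library 1, Tgtp1 at 2.63 and 0.41 TPM and Tgtp2 at 9.71 and 8.22 TPM. Tgtp1 had 231.5 expected counts in library 1 and 120.36 in library 2 (log2 1.18, counting interval 0.87 to 1.52), and Tgtp2 had 760.25 and 1477.3 (log2 -0.72, -0.85 to -0.59). The counts of both are fractional, and this pair was picked after seeing its values. The division of reads between the copies was not tested.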
